A study of Solanum lycopersicum with 9 samples.

Results

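The signal transduction class gathered the probe sets that the study had called in tomato roots and annotated as relays of signals, among them hormone receptors, protein kinases, protein phosphatases, calcium-binding proteins and small GTPases. A probe set is the group of short array probes that reports on 1 transcript, and each is identified here by the tomato sequence record it was designed from. The class held 54 of the 607 probe sets on the study's annotated list of called probe sets. Removing 14-3-3 proteins, MAP kinases, MAP kinase kinases and cyclin-dependent kinases left 49 members, out of 10209 probe sets on the array. The study's own tests on these 9 arrays chose the list, at a false discovery rate (FDR) of 10% in any comparison of the 3 treatments. The members' differences between treatments are therefore a description, and no p-value is given for them. Because only called probe sets carried a functional class, no signalling probe set just outside the study's threshold could be shown. By the annotation, 34 members had a gene match and 15 were clones without one. The class is that of the study and also held genes better known for other work, such as a cyclin and a protein-targeting factor.

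Plant cells pass signals along chains in which receptors or calcium sensors act on protein kinases, and phosphatases take the added phosphate groups off again. Calcium reaches the kinases through small calcium-binding proteins such as the CBLs, which bind and activate the CBL-interacting protein kinases (CIPKs). In roots, such chains are known to act in the control of ion uptake, in responses to water shortage and in growth, and CIPKs regulate transporters of nitrate, ammonium and potassium in Arabidopsis.

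RNA came from roots of wild-type tomato (Solanum lycopersicum, 76R) grown in field soil, excised from a treated soil patch 53 h after treatment. Patches had received water, a low NH4+ dose of 6.5 μg NH4+-N per g soil or a high NH4+ dose of 65 μg NH4+-N per g soil, and each treatment was measured on 3 Affymetrix Tomato GeneChips, 1 per biological replicate. All plants carried the same genotype, and by the methods their roots were colonised by mycorrhizal fungi, so each array measured root RNA of mixed cell types in a soil where NH4+ was also being turned into NO3-. In such bulk samples, fewer cells of a type and less RNA per cell cannot be told apart.

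Values are given as log2 signal, with a signal of 100 as the lower limit set by the study. Of 10038 tomato probe sets, 6670 reached the limit on at least 1 array and were tested together with limma. The share at or above the limit lay between 52.2% and 61.9% of probe sets per array, and the median log2 signal between 6.87 and 7.59. The low NH4+ arrays were lowest on both, with shares of 56.4%, 52.2% and 56.5% and medians of 7.15, 6.87 and 7.14. On the water and high NH4+ arrays the shares were at least 57.5% and the medians at least 7.23. The part of this in the low-dose differences was not tested. Low NH4+ array 2 and water array 3 stood apart from the others on the first principal component, at 52.7 and -40.3. The members' counts and medians are also given without them, as are values of CIPK20, KING1 and the receptor-like protein kinase-related member. The root genes TIP, a vacuolar aquaporin, and PT1, a phosphate transporter, reached the limit on all 9 arrays, the iron regulator FER on 6 and the root extensin ext1 on 0. Of the markers of other organs, the leaf genes CAB5 and CAB6A and the fruit genes E8 and PG2 reached it on 0 arrays, CAB4 on 6, and the 3 probe sets of Psy1, a carotenoid gene also used outside fruit, on 0, 7 and 8. With 3 arrays per treatment, precision is limited throughout.

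Most members had a lower signal in NH4+-treated roots than in roots given water. In high NH4+ roots 40 members were lower and 9 higher than water, beside 57.5% and 42.5% of all probe sets tested, with a median log2 difference of -0.71 against -0.08 for all probe sets tested. In low NH4+ roots 39 were lower and 10 higher, beside 64.8% and 35.2%, with a median of -0.52 against -0.16. The low-dose count depended on how arrays were scaled: median centring left 27 lower and 22 higher, quantile normalization 34 lower and 15 higher, whereas at the high dose 39 were lower under either. Median centring raised every low-dose difference from water by 0.36 and every high-dose difference by 0.12 on the log2 scale, and this applies to each value given below. Between the doses 24 members were higher and 25 lower at the high than at the low dose, beside 57.3% and 42.7%, but centred arrays gave 14 higher and 35 lower, and quantile-normalized ones 18 higher and 31 lower. Taking both doses together, 38 members (77.6%) were lower at both, 8 were higher at both and 3 lay on opposite sides of water. Lower at both were 46.1% of all probe sets tested and 54.8% of the rest of the study's list. The list's transcription class had 83.3% lower at both and its metabolism class 44.1%. After median centring 26 members (53.1%) were lower at both, beside 23.6% of all probe sets tested and 37.6% of the rest of the list. After quantile normalization 33 members (67.3%) were, beside 34.1% and 50.5%. The 2 doses were compared with the same 3 water arrays, so the sharing of direction between them is not independent. The heat map of members by array shows the lower signals of the NH4+ arrays for most rows of every role group.

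**Figure D1:**
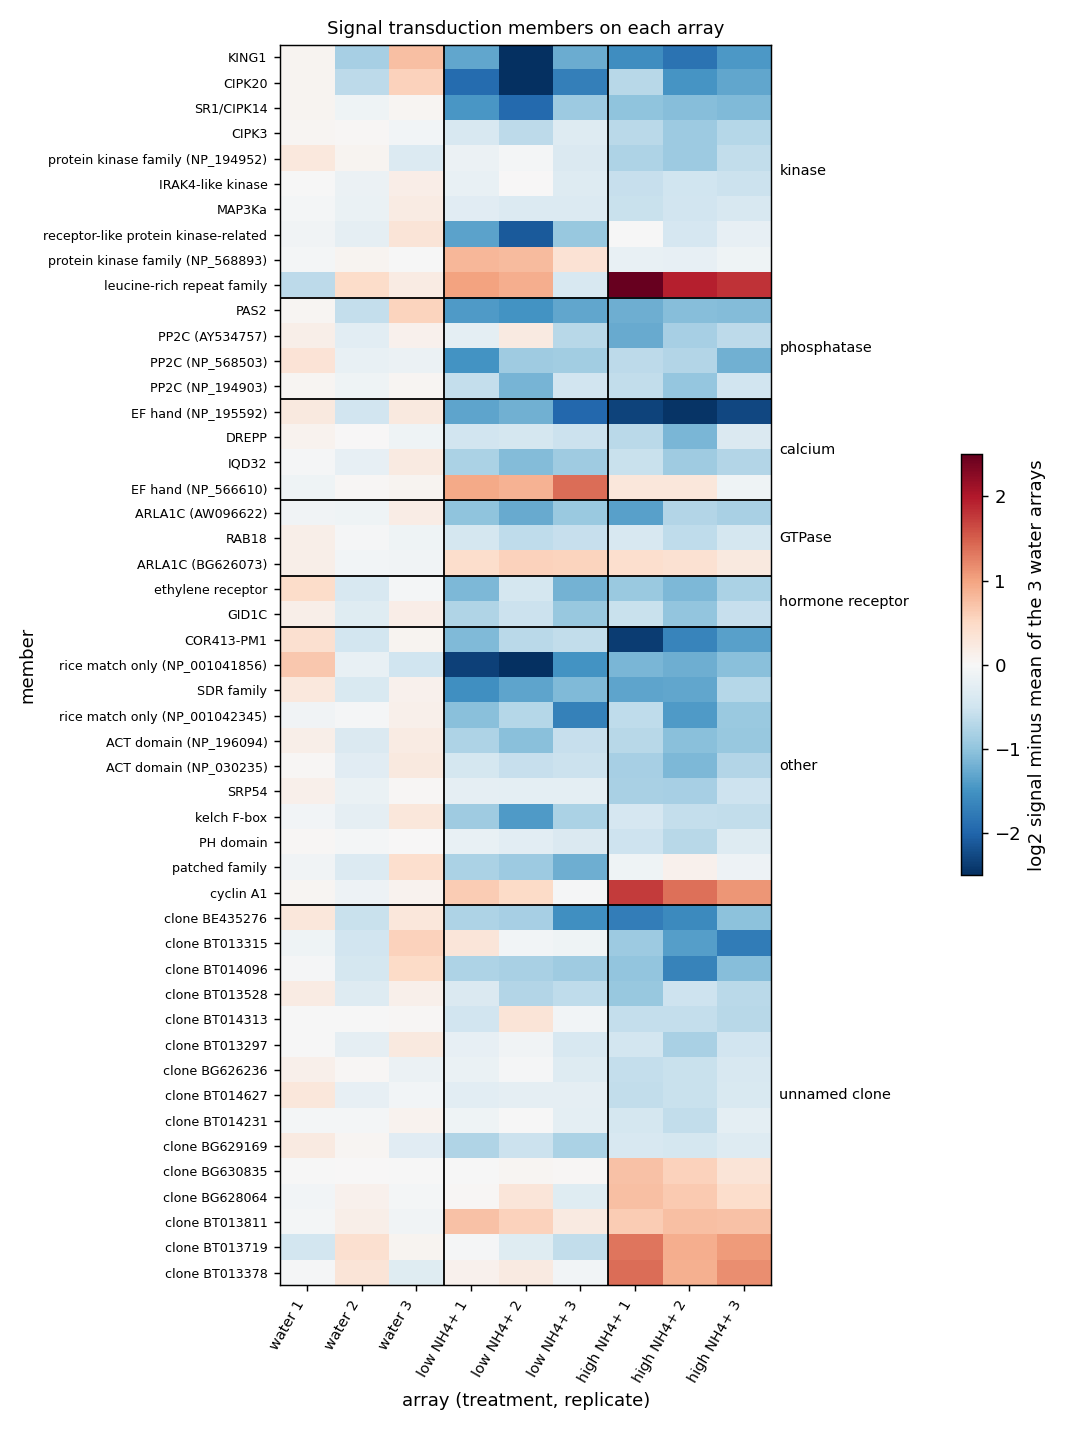
Log2 signal of each of the 49 members (rows, by role group) on each of the 9 arrays (columns), minus the mean of the 3 water arrays. Blue is lower and red higher than that mean, with colours ending at 2.5 in either direction, and 38 members have means below water at both doses.

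At an FDR of 10% over all probe sets tested, limma called 26 members in high NH4+ against water, 6 higher and 20 lower, where 6.52% of all probe sets tested were called (2.73% higher and 3.79% lower). In low NH4+ against water it called 16 members, 2 higher and 14 lower, beside 2.98% of all probe sets (0.540% higher and 2.44% lower). In high against low NH4+ it called 3 members, 2 higher and 1 lower, beside 0.900% of all probe sets (0.840% higher and 0.0600% lower). Since the study chose the members from these contrasts, nothing is read from the gap between these shares. In all, 35 members were called at least once, 7 were called against water at both doses, all lower at both, and 14 were called in none. The 7 were a GTPase of the ARLA1C type, an EF hand protein, IQD32, CIPK14, PAS2, a short-chain dehydrogenase and a member that matched only a rice protein.

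The 3 arrays of high NH4+ lay wholly below the 3 water arrays for 38 members and wholly above for 8, where 19.6% and 13.4% of all probe sets tested did so. For low NH4+ these counts were 31 and 4, beside 17.5% and 7.78%. Between the 2 NH4+ doses, high lay wholly above low for 13 members and wholly below for 17, beside 15.1% and 9.64%. The study chose the members by tests between treatments on these same arrays, so nothing is read from these gaps either.

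Close to the 10% threshold of the limma fit, the member just inside for high NH4+ against water was the clone BT013528, with a log2 difference of -0.71, and the one just outside was the phosphatase PP2C of BI925376 at -0.86. For low NH4+ against water a protein kinase of BG627658 lay just inside at 0.66 and an ACT domain protein of BM534980 just outside at -0.80. For high against low NH4+ the clone BT013378 lay just inside at 1.07 and the EF hand protein of BE461353 just outside at -0.91. Against water, the members just outside had larger differences than those just inside, with a wider spread between arrays.

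The members differed in which dose lay farther from water. For 29 the larger difference was at the high dose and for 20 (40.8%) at the low dose. On the rest of the study's list the low dose gave the larger difference for 15.2% of 558 probe sets, among the 54 probe sets of its transcription class for 16.7% and among the 102 of its metabolism class for 22.5%. Over all probe sets tested it did so for 52.8%, which is more than for the members. The share depended on how arrays were scaled: centring each array on its median made it 24.5% for members, 18.5% for the rest of the list and 58.4% for all probe sets tested, and quantile normalization made it 32.7%, 13.1% and 45.7%. These shares were not tested, because the list was chosen on the same arrays. Ordered by treatment mean, water was above low and low above high for 21 members (42.9%, against 20.0% of all probe sets tested). On the rest of the study's list this order held for 45.3%. Water was above high and high above low for 17 members (34.7%, against 26.0% of all probe sets tested and 9.5% of the rest of the list). The latter count was 7 (14.3%, against 11.2% and 6.3%) after median centring and 11 (22.4%, against 14.6% and 6.3%) after quantile normalization. The former count was 19 and 22. Stepwise increases from water through low to high were found for 6 members (12.2%, against 12.5% of all probe sets tested).

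**Figure D2:**
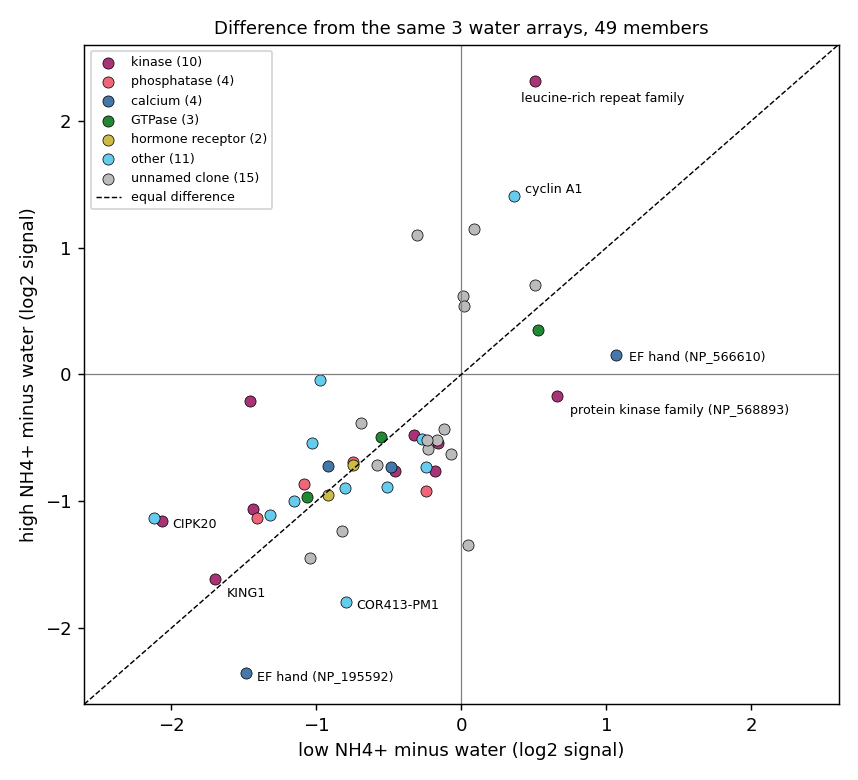
Each point is 1 of the 49 members, with its log2 difference between low NH4+ and water on the horizontal axis and between high NH4+ and water on the vertical axis, coloured by role group. Members in the lower left are below water at both doses (38), and those under the dashed line of equal difference have a lower value at the high dose than at the low dose.

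The hormone receptors of the class were an ethylene receptor and a gibberellin receptor, and both were lower than water at both doses. The ethylene receptor (U38666, listed as ETR3 and tETR), the gene known as Never ripe, holds ethylene responses off until it binds the hormone. Its log2 signal was 10.50, 9.65 and 10.01 on water, 8.92, 9.62 and 8.87 on low NH4+ and 9.12, 8.92 and 9.26 on high NH4+. All NH4+ arrays lay below all water arrays, but low NH4+ array 2 was only just below the lowest water array. The difference from water was -0.95 (SE 0.27) at the high dose and -0.92 (SE 0.27) at the low dose, a 1.93-fold and a 1.89-fold lower signal.

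GID1C (AW625117), annotated after an Arabidopsis receptor that binds gibberellin and then marks DELLA growth repressors for breakdown, had a log2 signal of 7.96, 7.52 and 7.99 on water, 7.07, 7.28 and 6.88 on low NH4+ and 7.26, 6.83 and 7.24 on high NH4+. Both doses lay below water on every array, with differences of -0.71 (high) and -0.74 (low), and the doses overlapped each other. Neither receptor was called by limma in any comparison, although the study's list held both.

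The 10 members of the kinase group included 3 CIPKs and the regulatory subunit KING1, and these 4 were lower than water at both doses. CIPK20 (AW223466) had a log2 signal of 8.18, 7.46 and 8.70 on water, 6.20, 5.54 and 6.40 on low NH4+ and 7.42, 6.65 and 6.81 on high NH4+. The low NH4+ arrays formed the lowest group, under the limit of 100 on all 3, and high NH4+ lay between low NH4+ and water without overlap. Its mean was 8.11 ± 0.62 (SD, n = 3) on water, 6.05 ± 0.45 in low NH4+ roots and 6.96 ± 0.41 in high NH4+ roots. The difference from water was -2.06 (SE 0.36) at the low dose, where it was called, and -1.15 (SE 0.36) at the high dose, where it was not. The low-dose value was -1.47 with signals under 100 set to 100, and -1.52 without low NH4+ array 2 and water array 3. Between the doses the difference was 0.91, or 0.32 with signals under 100 set to 100.

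CIPK14 (BM410146, also listed as SR1) had a log2 signal of 8.54, 8.36 and 8.53 on water, 7.02, 6.54 and 7.56 on low NH4+ and 7.47, 7.41 and 7.38 on high NH4+. Again the low dose held the lowest array, and the doses overlapped. The differences from water were -1.44 (SE 0.24) at the low dose and -1.06 (SE 0.24) at the high dose, and both were called.

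CIPK3 (AW091931), which in Arabidopsis acts in cold and abscisic acid signalling, ran in the other order. On the log2 scale its signal was 8.27, 8.24 and 8.14 on water, 7.81, 7.56 and 7.90 on low NH4+ and 7.53, 7.31 and 7.51 on high NH4+, with no overlap between any of the 3 groups. Its difference from water was -0.76 (SE 0.15) at the high dose, where it was called, and -0.46 (SE 0.15) at the low dose, a value that shrank to -0.09 after median centring. Within an array, CIPK14 exceeded CIPK3 by 0.26 ± 0.13 (SD, n = 3) on the log2 signal scale on water and lay below it by a mean difference of -0.72 ± 0.35 in low NH4+ roots, while in high NH4+ roots the difference was -0.03 ± 0.12. Signals of different probe sets are not on a common scale, so only the change of this difference between treatments can be read.

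KING1 (BM535073) is named after a gamma subunit of the SNF1-related kinase complexes of Arabidopsis, which respond to the energy state of the cell. The 9 arrays gave a log2 signal of 9.73, 8.83 and 10.41 on water, 8.36, 7.10 and 8.43 on low NH4+ and 8.10, 7.80 and 8.23 on high NH4+. Every NH4+ array lay below every water array, but the water arrays themselves spanned more than did those of high NH4+. The differences from water were -1.61 (SE 0.45) at the high dose and -1.70 (SE 0.45) at the low dose, and limma called it at the high dose only. Without low NH4+ array 2 and water array 3, which held its lowest and its highest value, the differences were -1.24 and -0.89.

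**Figure D3:**
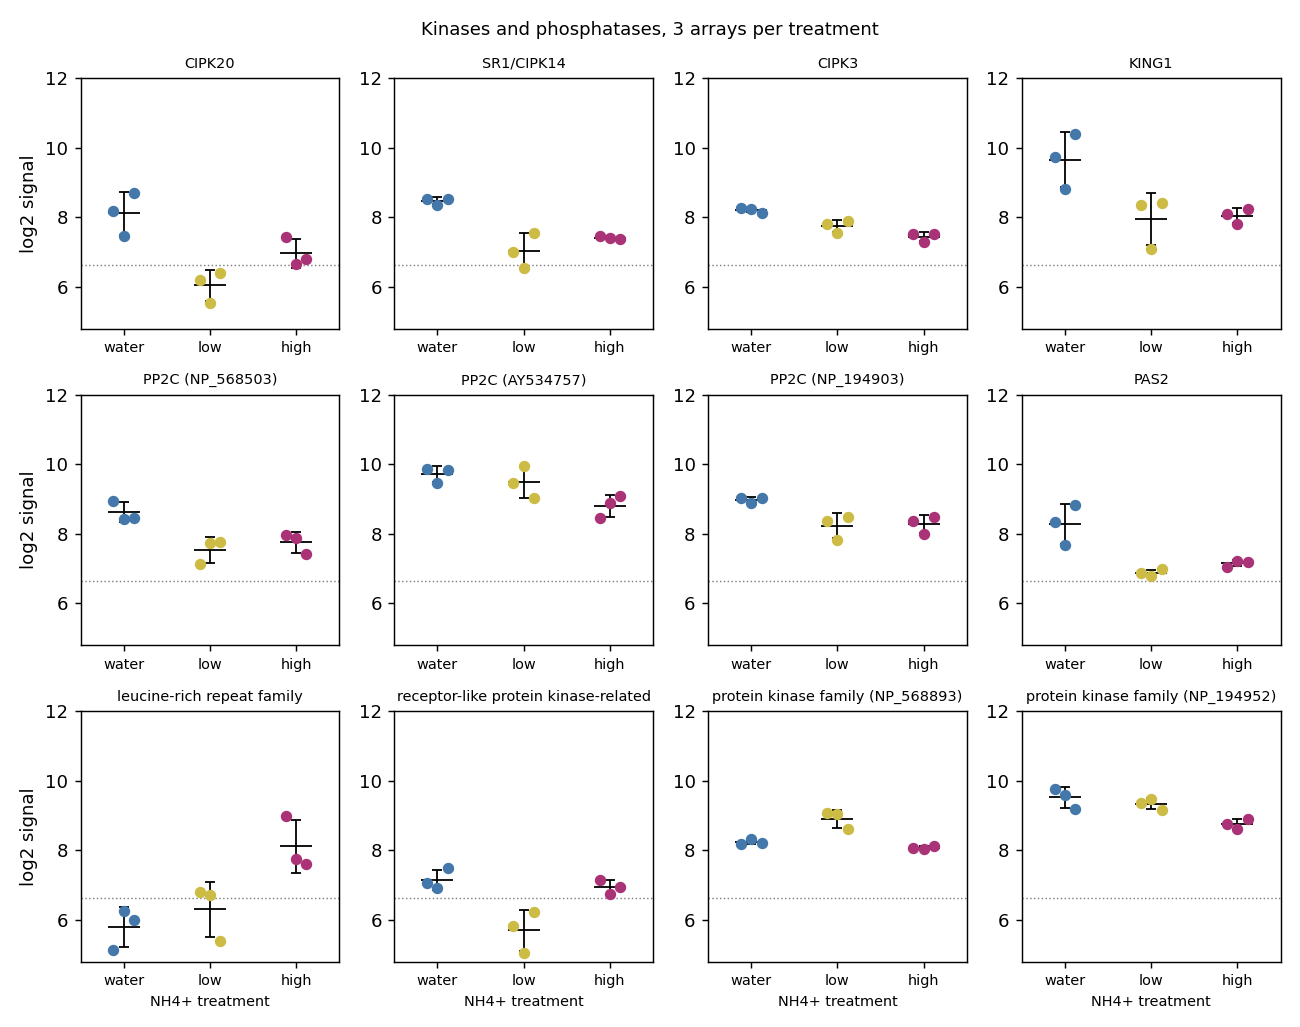
Log2 signal (vertical axis) of 8 members of the kinase group and the 4 of the phosphatase group in roots given water, low NH4+ or high NH4+. Points are the 3 arrays of a treatment, bars the mean ± SD, and the dotted line a signal of 100. The CIPKs, KING1 and the members of the phosphatase group have their highest mean on water, whereas the leucine-rich repeat member has its highest at the high dose.

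The leucine-rich repeat member (BI929852), in a family that includes many receptor-like kinases, had the largest positive difference from water of all members. Its log2 signal was 5.14, 6.26 and 6.0 on water, 6.80, 6.71 and 5.40 on low NH4+ and 9.01, 7.74 and 7.60 on high NH4+. The high NH4+ arrays were all above the other 6 arrays, of which the water arrays and 1 low NH4+ array lay under the limit. The difference from water was 2.32 (SE 0.50) at the high dose, or 1.47 with signals under 100 set to 100, and that between the doses was 1.81 (SE 0.50).

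A receptor-like protein kinase-related member (BF097075) separated the doses the other way. It had a log2 signal of 7.07, 6.93 and 7.49 on water, 5.83, 5.06 and 6.22 on low NH4+ and 7.15, 6.74 and 6.96 on high NH4+. Only the low NH4+ arrays were apart, all below the limit and below the other 6. Its difference from water was -1.46 (SE 0.29) at the low dose, where it was called, and -0.21 (SE 0.29) at the high dose. The low-dose value was -0.52 with signals under 100 set to 100, and -0.97 without low NH4+ array 2 and water array 3.

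Of the pair annotated only as protein kinases, the one of BG627658 had a log2 signal of 8.19, 8.32 and 8.23 on water, 9.07, 9.04 and 8.61 on low NH4+ and 8.06, 8.03 and 8.14 on high NH4+. The low NH4+ arrays lay above all others and the high NH4+ arrays below all others. It was called higher in low NH4+ than on water, by 0.66 (SE 0.16), and lower at the high than at the low dose, with a difference of -0.83 (SE 0.16). The kinase of CK715508 had its lowest values at the high dose, 8.75, 8.62 and 8.92, against 9.78, 9.60 and 9.19 on water and 9.38, 9.48 and 9.17 on low NH4+. It was called lower at the high dose, with a difference of -0.76 (SE 0.19), and differed from water by -0.18 at the low dose, a value that turned to 0.18 after median centring.

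The other members of the kinase group had smaller differences. A kinase resembling IRAK4, an animal kinase of innate immunity (BT014177), was called lower in high NH4+ roots, with a difference of -0.54 (SE 0.15), and differed from water by -0.16 at the low dose, a value of 0.20 after median centring. MAP3Ka (AY500156), a tomato MAP kinase kinase kinase known from plant cell death in immunity, differed from water by -0.48 (SE 0.15) at the high dose and -0.33 (SE 0.15) at the low dose and was not called. Its low-dose difference was 0.04 after median centring. Across the kinase group, 9 of 10 were lower than water at the high dose under each of the 3 scalings, whereas at the low dose 8 were lower as deposited, 5 with median centring and 7 with quantile normalization. As deposited, 57.5% of all probe sets tested were lower at the high dose and 64.8% at the low dose.

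All 4 members of the phosphatase group, which includes the phosphatase-like PAS2, were lower than water at the high dose under each of the 3 scalings. At the low dose all 4 were lower as deposited and after quantile normalization, and 3 after median centring. Of the 4, 3 are protein phosphatases of type 2C (PP2Cs), a family in which some members hold back abscisic acid signalling in Arabidopsis. The PP2C of BI925376 had a log2 signal of 8.96, 8.44 and 8.47 on water, 7.12, 7.73 and 7.76 on low NH4+ and 7.96, 7.89 and 7.42 on high NH4+. No NH4+ array reached the lowest water array. It was called lower at the low dose, with a difference of -1.08 (SE 0.25), and differed from water by -0.86 (SE 0.25) at the high dose.

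The PP2C listed as DIG3 (AY534757) had a log2 signal of 9.88, 9.47 and 9.85 on water, 9.48, 9.96 and 9.03 on low NH4+ and 8.47, 8.89 and 9.08 on high NH4+. High NH4+ lay below water on every array, but the low NH4+ arrays spanned the range of water, with array 2 above all water arrays. The difference was -0.92 (SE 0.27) at the high dose and -0.24 (SE 0.27) at the low dose, which became 0.12 after median centring. The remaining PP2C (BM413528) had 9.04, 8.88 and 9.03 on water, 8.39, 7.82 and 8.50 on low NH4+ and 8.36, 8.01 and 8.50 on high NH4+, differences of -0.75 and -0.69 (SE 0.21 each) that limma did not call. Its 2 doses covered nearly the same range.

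PAS2 (AW094708) is annotated after an Arabidopsis protein that resembles tyrosine phosphatases and acts as a dehydratase in the making of very long chain fatty acids. It had a log2 signal of 8.34, 7.69 and 8.84 on water, 6.87, 6.80 and 6.98 on low NH4+ and 7.06, 7.21 and 7.20 on high NH4+. The 3 groups did not overlap, and the NH4+ arrays were tightly grouped while the water arrays were not (SD 0.58 on water, 0.09 and 0.08 at the low and high doses). The differences from water were -1.41 (SE 0.26) at the low dose and -1.13 (SE 0.26) at the high dose, both called.

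Of the 4 calcium-related members, 3 were lower than water at both doses and 1 was higher. The lowest of all members against water was an EF hand protein (BM412443, matched to Arabidopsis NP_195592). EF hands are the loops with which calmodulin and related proteins bind calcium. On the log2 scale its signal was 9.34, 8.61 and 9.33 on water, 7.78, 7.90 and 7.13 on low NH4+ and 6.78, 6.63 and 6.81 on high NH4+. The 3 treatments formed separate steps, water above low NH4+ and low above high NH4+, with 1 high NH4+ array just under the limit. Relative to water the log2 difference was -2.35 (SE 0.26) at the high dose, a 5.1-fold lower signal, and -1.49 (SE 0.26) at the low dose, a 2.80-fold lower signal.

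The other EF hand protein (BE461353, matched to Arabidopsis NP_566610) had a log2 signal of 8.58, 8.71 and 8.75 on water, 9.63, 9.54 and 10.07 on low NH4+ and 8.97, 8.97 and 8.57 on high NH4+. Only the low NH4+ arrays stood above the rest. It was called higher at the low dose, by 1.07 (SE 0.19), and its difference at the high dose was 0.16 (SE 0.19). Within an array, the signal of this protein minus that of the EF hand protein described before it was -0.41 ± 0.46 (SD, n = 3) on water, 2.14 ± 0.70 in low NH4+ roots and 2.1 ± 0.30 in high NH4+ roots. This within-array difference does not depend on how arrays were centred, and the 6 NH4+ arrays lay above the 3 water arrays.

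IQD32 (BM535907), of a plant family whose IQ motifs bind calmodulin, had a log2 signal of 8.65, 8.49 and 8.92 on water, 7.89, 7.61 and 7.79 on low NH4+ and 8.12, 7.80 and 7.96 on high NH4+. All NH4+ arrays lay below all water arrays. The difference was called at both doses, -0.92 (SE 0.17) at the low dose and -0.72 (SE 0.17) at the high dose. DREPP (AW218723), a plasma membrane protein of a family that binds calcium, was among the brightest members at 11.08 ± 0.10 (SD, n = 3) on water. It was called lower at the high dose, with a difference of -0.73 (SE 0.20), and differed from water by -0.48 (SE 0.20) at the low dose, or by -0.12 after median centring.

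The 3 small GTPases, switches that act when bound to GTP, included 2 probe sets matched to the same Arabidopsis protein, ARLA1C, an ADP-ribosylation factor-like GTPase. These 2 ran in opposite directions. The probe set of AW096622 had a log2 signal of 8.59, 8.57 and 8.87 on water, 7.67, 7.42 and 7.75 on low NH4+ and 7.32, 7.95 and 7.86 on high NH4+. All NH4+ arrays were below water, with differences of -1.06 at the low dose and -0.97 at the high dose (SE 0.20 each), both called. The probe set of BG626073 had 8.10, 7.88 and 7.86 on water, 8.39, 8.53 and 8.51 on low NH4+ and 8.37, 8.33 and 8.19 on high NH4+. Here all NH4+ arrays were above water, by 0.53 at the low dose and 0.35 at the high dose (SE 0.14 each), and neither difference was called.

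Within an array, the log2 signal of the first ARLA1C probe set minus that of the other was 0.73 ± 0.26 (SD, n = 3) on water. In NH4+ roots this difference was -0.86 ± 0.22 at the low dose and -0.59 ± 0.40 at the high dose. It was lower on all 6 NH4+ arrays than on any of the 3 water arrays. As with the CIPKs, only its change between treatments can be read, not its sign. Whether the 2 probe sets report on separate genes or on parts of 1 transcript was not tested. The third GTPase, RAB18 (BG124156), of a family that directs membrane traffic, had a log2 signal of 10.04, 9.85 and 9.77 on water, 9.45, 9.25 and 9.30 on low NH4+ and 9.49, 9.26 and 9.44 on high NH4+. All its NH4+ arrays lay below water, and the differences of -0.55 (low) and -0.49 (high), with an SE of 0.15 each, were not called.

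**Figure D4:**
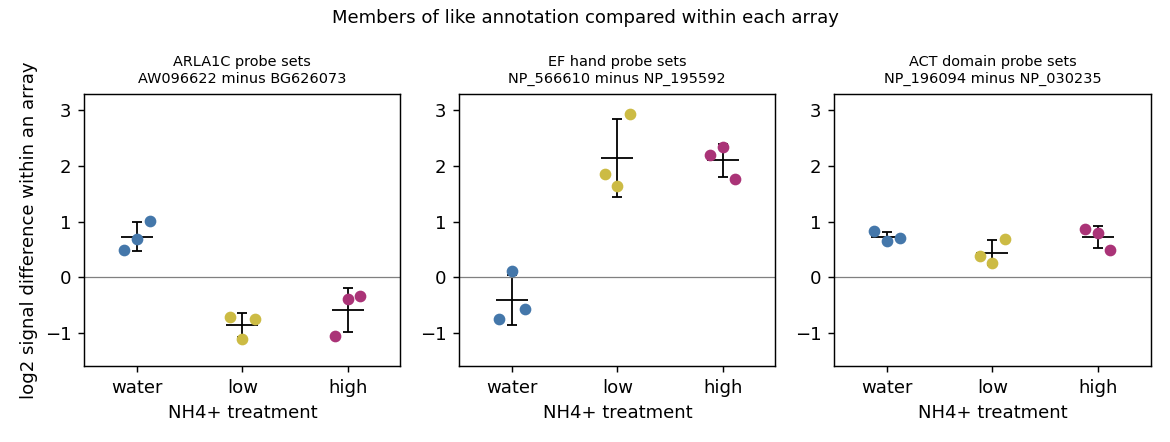
Difference in log2 signal between 2 members of like annotation on the same array (vertical axis), for water, low NH4+ and high NH4+ roots, with points for the 3 arrays and bars for the mean ± SD. The ARLA1C difference runs from 0.73 on water to -0.86 and -0.59 at the low and high doses, and the EF hand difference from -0.41 to 2.14 and 2.1. The ACT domain difference stays between 0.44 and 0.73 on average. Only changes between treatments can be read, not the sign of a difference.

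The group of 11 other members held proteins whose link to signalling rests on the study's annotation. COR413-PM1 (CN384943), named after a cold-regulated plasma membrane protein, is so annotated in the study's list of called probe sets, but the study elsewhere names the same probe set a lactoylglutathione lyase, so which gene its values describe is not settled here. It had a log2 signal of 11.75, 10.89 and 11.41 on water, 10.24, 10.68 and 10.72 on low NH4+ and 8.97, 9.70 and 9.99 on high NH4+. The treatments formed 3 separate steps, from bright on water to lower values at each dose. The difference was called at the high dose, -1.80 (SE 0.31) or 3.47-fold lower, and was -0.80 (SE 0.31) at the low dose.

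Cyclin A1 (AJ243451), a cell cycle regulator that the list counted with signalling, ran the other way. It had a log2 signal of 7.10, 6.92 and 7.14 on water, 7.70, 7.53 and 7.02 on low NH4+ and 8.80, 8.43 and 8.15 on high NH4+. The high NH4+ arrays stood above all others, and low NH4+ overlapped water. The difference at the high dose was 1.41 (SE 0.23), a 2.65-fold higher signal that was called, and it was 0.36 (SE 0.23) at the low dose.

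A short-chain dehydrogenase/reductase (AI489763) had a log2 signal of 9.26, 8.60 and 9.11 on water, 7.46, 7.67 and 7.88 on low NH4+ and 7.67, 7.70 and 8.28 on high NH4+. It was called lower at both doses, with a difference of -1.32 at the low dose and -1.11 at the high dose (SE 0.24 each), without overlap with water. A member matched only to the rice protein NP_001041856 (AW218110) had 8.57, 7.73 and 7.41 on water, 5.57, 5.38 and 6.40 on low NH4+ and 6.76, 6.68 and 6.86 on high NH4+. As with CIPK20, all its low NH4+ arrays were below the limit, and the difference was -2.12 (SE 0.34) at the low dose, which was called, against -1.14 (SE 0.34) at the high dose. With signals under 100 set to 100 the low-dose value was -1.26. The other member with only a rice match, NP_001042345 (BG630625), was called lower at both doses, with a difference of -1.15 at the low dose and -0.99 at the high dose (SE 0.28 each).

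Both members with an ACT domain, a fold that often binds amino acids to regulate the protein that carries it, were called lower in high NH4+ roots, each with a difference of -0.89 (SE 0.21 for BM534980 and 0.18 for CK716356). At the low dose they differed from water by -0.80 and -0.52 and were not called. Their difference within an array was 0.72 ± 0.09 (SD, n = 3) on water, 0.44 ± 0.22 in low NH4+ roots and 0.72 ± 0.20 in high NH4+ roots, so the mean difference of this pair moved less between treatments than those of the EF hand and ARLA1C pairs.

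A kelch-repeat F-box protein (BM412022), of a family that picks proteins for ubiquitination, was called lower at the low dose, with a difference of -1.03 (SE 0.21), and differed from water by -0.54 (SE 0.21) at the high dose. The patched family member (AW621769), named after the Hedgehog receptor of animals, also separated the doses. The 9 arrays gave a log2 signal of 7.24, 7.0 and 7.76 on water, 6.53, 6.42 and 6.11 on low NH4+ and 7.22, 7.44 and 7.20 on high NH4+. All 3 low NH4+ arrays fell under the limit, with a called difference of -0.98 (SE 0.22), whereas at the high dose the difference was -0.04 (SE 0.22), the only high-dose difference whose sign turned with scaling (0.07 after median centring). SRP54 (Z34527), the subunit of the signal recognition particle that binds signal peptides of proteins being made, was called lower at the high dose, with a difference of -0.73 (SE 0.15), and differed from water by -0.24 at the low dose, or by 0.12 after median centring. A pleckstrin homology (PH) domain protein (CN385360), of a kind that often binds membrane phosphoinositides, differed from water by -0.51 and -0.27 (SE 0.15 each) and was not called, and its low-dose value was 0.09 after median centring.

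Of the 15 clones without a gene match, 10 were lower and 5 higher than water at the high dose, beside 57.5% and 42.5% of all probe sets tested. Limma called 4 of each direction, beside 3.79% of all probe sets called lower and 2.73% called higher. The study chose these clones too from these contrasts, so nothing is read from the gap between these shares. At the low dose 10 clones were lower as deposited, beside 64.8% of all probe sets tested, 4 with median centring and 7 with quantile normalization. Only 1 was called, BG629169 at -0.70 (SE 0.17), where 2.44% of all probe sets were called lower. The clone with the widest range of treatment means was BE435276, with a log2 signal of 8.22, 7.38 and 8.24 on water, 7.17, 7.12 and 6.42 on low NH4+ and 6.22, 6.36 and 6.92 on high NH4+. It was called lower at the high dose, with a difference of -1.45 (SE 0.31), and differed from water by -1.04 at the low dose.

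A pair of clones was called higher at the high dose than at the low dose, and their values are given because of that call. BT013719 had a log2 signal of 7.23, 8.08 and 7.75 on water, 7.67, 7.39 and 7.08 on low NH4+ and 9.02, 8.59 and 8.76 on high NH4+. BT013378 had 7.37, 7.72 and 7.09 on water, 7.50, 7.61 and 7.32 on low NH4+ and 8.79, 8.28 and 8.56 on high NH4+. In both clones only the high NH4+ arrays stood apart, above the other 6. The differences between doses were 1.41 (SE 0.25) and 1.07 (SE 0.21), and those of high NH4+ from water 1.10 and 1.15.

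The other called clones were BT013315, at -1.35 in high NH4+ roots and 0.05 in low NH4+ roots, BT014096 at -1.24 and -0.82, BT013528 at -0.71 and -0.58, BT013811 at 0.70 and 0.51 and BG630835 at 0.54 and 0.02. All of these were called at the high dose only. The 3 high NH4+ arrays of BT013315 lay under the limit, and its high-dose difference was -0.35 with signals under 100 set to 100.

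Some members were measured near the lower limit. A signal of at least 100 was reached on all 9 arrays by 36 members and on some arrays only by the other 13, and 8 members had at least 1 treatment mean under it. These 8 were the leucine-rich repeat member, CIPK20, the receptor-like protein kinase-related member, the patched family member, the rice match NP_001041856 and the clones BE435276, BT013315 and BT014313. With all signals under 100 set to 100, 41 members were called in high NH4+ against water and 15 in low NH4+ against water. The shares of all probe sets called under that setting are not given here, so these counts are not read as particular to the members.

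Single arrays of a treatment differed in where the members stood on them. The highest of the 9 values lay on water array 1 for 18 members, on water array 3 for 19 and on water array 2 for 0, beside 13.1%, 28.7% and 3.69% of all probe sets tested. Relative to the mean of their treatment, the members' median deviation was -0.16 on water array 2 and -0.11 on high NH4+ array 2. Without low NH4+ array 2 and water array 3, the members' median difference from water was -0.63 at the high dose and -0.44 at the low dose, and 7 and 0 members were called. The shares of all probe sets called without these 2 arrays are not given here, so the counts are not read as particular to the members. The part of single arrays in the members' differences was not tested.

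To set the members beside other signalling genes, probe sets of known signalling families were taken by name from the array annotation, which gave a symbol to 909 probe sets. The families held 39 probe sets, of which 33 were tested and 1 (the ethylene receptor above) was a member. In low NH4+ against water 1 of the 33 passed the 10% FDR, in a comparison where 2.98% of all probe sets tested did. This was PLDb1, a phospholipase D, an enzyme that releases the lipid messenger phosphatidic acid. Its log2 signal was 9.14, 9.26 and 9.00 on water, 9.87, 9.83 and 9.85 on low NH4+ and 9.25, 9.07 and 9.48 on high NH4+. It rose by 0.71 in low NH4+ roots (SE 0.16, adjusted p = 0.0939 from limma, n = 3 per group), with all 3 low NH4+ arrays above the other 6, and was at 0.13 from water in high NH4+ roots. This call was lost with no filter, at an FDR of 5%, by the methods' test, with the replicate number as a block, without low NH4+ array 2 and water array 3, and on leaving out any 1 of 7 arrays, the exceptions being water array 2 and low NH4+ array 3.

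In high NH4+ against water limma called 0 of the 33 family probe sets, beside 6.52% of all probe sets tested. Of the 33, 4 had an unadjusted p under 0.05 (3 apart from the member), while limma with a mean-dependent prior called 1 and the methods' test 0. The lowest p-values among those that are not members were those of PLDa3, also a phospholipase D, at -0.83 (SE 0.27, adjusted p = 0.131 from limma), and IMP3, an inositol monophosphatase that recycles inositol, at -0.58 (SE 0.22, adjusted p = 0.181 from limma). In high against low NH4+ limma called 0, beside 0.900% of all probe sets tested. Of the 33, 2 had an unadjusted p under 0.05, and limma with a mean-dependent prior and the methods' test also called 0. Here the lowest were PLDb1 at -0.58 (SE 0.16, adjusted p = 0.144 from limma) and PLDb2 at 0.59 (SE 0.26, adjusted p = 0.267 from limma). The share of all probe sets at an unadjusted p under 0.05 is not given here, so the counts of 4 and 2 are not read further.

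Like the member ETR3, the other ethylene receptors on the array did not pass the test in any comparison. ETR1, ETR2, ETR4, ETR5 and ETR6 differed from water by -0.28, -0.40, 0.37, -0.07 and -0.48 in high NH4+ roots, with standard errors from 0.19 to 0.66. ETR3 stood at -0.95, but as a member it came from the list that the study chose on these arrays. CTR1, the kinase through which these receptors act, was at -0.05 and -0.04 from water at the high and low doses (SE 0.16). SNF1, a catalytic subunit of the SNF1-related kinases, differed from water by -0.46 (SE 0.22, adjusted p = 0.257 from limma) at the high dose and by -0.09 at the low dose. Among the catalytic subunits of protein phosphatase 2A, PP2AC1 and PP2Ac2, and the calcium-dependent kinases CDPK1 and cpk1, the difference from water farthest from 0 at either dose was -0.27 (cpk1 at the high dose). The 8 small GTPases of the Rab and Ran families had a median difference of -0.12 at the high dose and 0.04 at the low dose. Over the 32 family probe sets that are not members, the median log2 difference was -0.14 at the high dose and -0.07 at the low dose, beside -0.08 and -0.16 for all probe sets tested.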

How the data were processed

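Deposited values are natural log signals, which the authors computed by MAS5 within Affymetrix Expression Console (versions not given in the sources used here). These were converted to log2, without further normalization. The 171 control probe sets were left out, and a signal of 100 on at least 1 of 9 arrays was required. Differences were fitted with limma 3.58.1 in R 4.3.3, in 1 model of the 3 treatments, and p-values were adjusted by the Benjamini-Hochberg method over 6670 probe sets per comparison. The members and lists were chosen with earlier results of these data known. Groups came from the sample records. The authors' fold changes and p-values were not used. All members with a gene match are named. Values on every array are given for those with the widest range in their role group and for like-annotated ones. The ACT domain members and the rice match of BG630625 are exceptions, without values on every array. Values of CIPK14, CIPK3, 3 plain or receptor-like kinases, the patched member, the last PP2C and 2 clones were added after seeing the values. Families came from name patterns on the array annotation, and root, leaf and fruit markers checked the tissue. The fit was tested on simulated data. Alternatives were other filters, scalings, tests and thresholds, the replicate number as a block, and leaving out arrays. By the methods, plants stood in an unreplicated block design, but the sources used here do not say that a replicate number marks a block, so the main fit has none. No sequences or genome positions were used here.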

Additional observations from a re-analysis of the deposited data

Results flagged for a closer look

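Of the members, 3 differed between the 2 NH4+ doses by limma's test of that difference. The protein kinase of BG627658 was lower at the high than at the low dose, with a log2 difference of -0.83, and its high and low NH4+ arrays also lay on opposite sides of the water mean, which was not tested. The clone BT013719 was higher at the high dose by 1.41, and likewise had its doses on opposite sides of the water mean, again not tested. Its low-dose difference from water was -0.31 as deposited, 0.05 after median centring and 0.007 after quantile normalization. Under either of these scalings both doses thus had means above water. The clone BT013378 was higher by 1.07. These members came from a list chosen on the same arrays, and median centring, quantile normalization and the methods' test each ended all 3 calls.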

How the results depend on the processing

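In high NH4+ against water, 26 members were called, against 6 with no filter, 5 at an FDR of 5%, 8 by the methods' test, 16 with the replicate block, 41 with signals under 100 set to 100 and 7 without low NH4+ array 2 and water array 3 (the last chosen after seeing the data). In low NH4+ against water the 16 calls became 2 with no filter, 0 at an FDR of 5%, 0 by the methods' test, 10 after quantile normalization and 0 without those 2 arrays. In high against low NH4+ the 3 calls became 0 with no filter, at an FDR of 5%, by the methods' test, after quantile normalization, with the replicate block and without those 2 arrays, and 5 with limma-trend. After median centring the calls were 6 higher and 15 lower, 4 higher and 9 lower, and 0 higher and 2 lower in the 3 comparisons. Centring moved the median of all probe sets to 0.04 and 0.20 at the high and low doses, and that of the members to -0.59 and -0.15. Leaving out 1 array gave 1 to 36, 0 to 23 and 0 to 13 called members. High NH4+ against water held 1 without water array 1 or high NH4+ array 1 or 2, 6 without water array 3 and 14 without high NH4+ array 3. Low NH4+ against water held 0 without water array 1 or 3, low NH4+ array 1 or 2 or high NH4+ array 3, 4 without high NH4+ array 1 and 1 without high NH4+ array 2. High against low NH4+ held 0 without water array 3, low NH4+ array 2 or any high NH4+ array, 1 without water array 1 and 13 without low NH4+ array 3. No member changed direction under any of these settings in a comparison where it was called. In comparisons where they were not called some members did, among them 12 after median centring and 5 after quantile normalization in low NH4+ against water. Of the signalling families in high NH4+ against water, 1 probe set was called with the stricter filter, quantile normalization, signals set to 100 or limma-trend, and 0 to 2 on leaving out 1 array. In low NH4+ against water 0 were called with no filter, at an FDR of 5%, by the methods' test, with the replicate block and without the 2 arrays, and 0 to 3 on leaving out 1 array. PLDb1 was not called without water array 1 or 3, low NH4+ array 1 or 2 or any high NH4+ array. High against low NH4+ gave 0 to 1 in the same way. Samples of the same replicate number did not deviate together (correlations from -0.38 to 0.35, with 2 of 9 arrays correlating best with their own number), so the numbers were not taken to pair the arrays, and with the replicate block low NH4+ against water held 14 members. The cause of these changes was not tested. The shares of all probe sets called under these settings are not given here, so the changes are not read as particular to the members or families. Values near a signal of 100 are the least precise.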
